A study of Mus musculus with 12 samples.

Results

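Tumours started by a translocation between the mouse genes Ewsr1 and Atf1 were set against tumours that expressed EWSR1-ATF1 from the Rosa26 locus, in 10 of the 12 RNA-seq libraries of the series. The translocation group held 4 tumours with the genotype HprtCre; Ewsr1-loxP; Atf1-loxP, titled 68T1, 18T1, 65T1 and 44T1 and here called translocation tumours 1 to 4. The Rosa26 group held 6 tumours with the genotype Rosa26-LSL-EWSR1-ATF1, titled 4T1, N107, N105, N26, 99481 and 99482 and here called Rosa26 tumours 1 to 6. Left out were another translocation tumour, 18T1E, and the only skeletal muscle library, 68C1, whose genotype is WT. Values after ± are the SE of a log2 fold change (translocation over Rosa26). The question was which genes and gene families separated the genotypes once 18T1E was set aside.

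18T1E was chosen for removal by measured values, so the figures behind that choice are a description and carry no test. Its median Spearman's rho with the 10 other tumours, over all tested genes on the log2 CPM scale, was 0.747 (range 0.650 to 0.781). The next lowest library, translocation tumour 2, had a median of 0.832 with the others. Among the tumours kept, 6 pairs within the translocation group had a median rho of 0.888 and 15 pairs within the Rosa26 group 0.905, while the 24 pairs that cross genotypes had 0.852 (0.814 to 0.903). Removing the most distant library also narrows the spread that every test below is measured against. The biological coefficient of variation, the gene-wise spread between tumours of a group, was 0.556 for the 10 tumours and 0.643 with 18T1E kept, and results are therefore given with and without it.

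The translocation tumours carried Cre at Hprt, an X-linked housekeeping locus, and loxP sites in Ewsr1 and in Atf1, so that recombination could join the endogenous genes. The Rosa26 tumours carried a fusion transgene behind a loxP-flanked stop. Which Cre opened that stop is not given in the sources used here, nor are strain, age, tumour site or how many founder cells a tumour had. No animal received a drug, and tumours were frozen when the primary tumour caused morbidity. Depth spanned 2.96 to 19.9 M counts per translocation tumour and 6.82 to 21.5 M per Rosa26 tumour. Ribosomal sequence models held 37.8% of translocation tumour 2 and 30.0% of Rosa26 tumour 4, and 1.34% to 7.38% of the other 8. Xist and Y-linked genes read translocation tumours 1 to 4 and Rosa26 tumours 1 and 4 as female and the other Rosa26 tumours as male, and 18T1E, the only male translocation tumour, is the one left out. In bulk tumours fewer cells of a type and less RNA per cell cannot be told apart.

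EWSR1-ATF1 joins the strong activation domain of EWSR1, a FET family RNA-binding protein, to the DNA-binding domain of ATF1, a relative of CREB. ATF1 and CREB bind the cAMP response element, and the fusion binds such sites without the phosphorylation that normally switches these factors on. The fusion is the hallmark of clear cell sarcoma, a soft tissue tumour that often carries melanocytic markers. Here some melanocyte genes were too scarce to be tested. Tyr had at most 0.496 CPM in a translocation and 0.123 CPM in a Rosa26 tumour, and Mlana had 0 counts. Sox10, a neural crest gene that was also not tested, had at most 1.98 and 1.35 CPM. Other melanocyte and pigment genes were expressed. Summed over that list the level was 83.93 to 212 CPM in the translocation tumours and 71.55 to 165.4 CPM in the Rosa26 tumours. In 18T1E it was 1182 CPM. Of 12 tested melanocyte and pigment genes 0 were higher and 1, Rab27a, was lower in the translocation tumours.

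Levels at the engineered loci are set beside the labels here and do not by themselves establish the genotypes. Atf1 (ENSMUSG00000023027, chromosome 15, 100227819 to 100261244, mm10) was 50.7, 73.3, 42.5 and 37.3 CPM in translocation tumours 1 to 4. Its lowest, median and highest values in the Rosa26 tumours were 21.6, 24.1 and 27.6 CPM. The groups did not overlap, and Atf1 rose (log2 fold change 1.07 ± 0.21, edgeR adjusted p = 0.0249), a call that held in 7 of 10 leave-one-out fits and was lost without translocation tumour 1 or Rosa26 tumours 3 or 6. Ewsr1 did not pass edgeR's test, at -0.16 (adjusted p = 0.707), and Hprt did not either, at -0.75 (adjusted p = 0.227). Gt(ROSA)26Sor, a noncoding antisense model at Rosa26, was 19.2, 7.93, 18.8 and 14.1 CPM in the translocation tumours against at most 6.41 CPM in any Rosa26 tumour, but missed the threshold (log2 fold change 2.49 ± 0.75, edgeR adjusted p = 0.0819). With the strand setting of the counting unstated, reads of this model and of genes it overlaps on the opposite strand cannot be told apart. Counts cannot separate normal from fused Atf1 or Ewsr1 transcripts.

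Of 17433 genes tested, 744 (4.27%) passed edgeR's quasi-likelihood test at a Benjamini-Hochberg adjusted p of 0.05. In the translocation tumours 293 were higher (1.68% of the genes tested) and 451 lower (2.59%). These shares over all genes are the background for the count of calls in each list and family. Lower calls were also larger, with a median log2 fold change of -3.00, against 1.57 for the higher calls. Of the 408 calls with a log2 fold change of at least 2 in size, 307 were lower. The expression filter bears on these sizes. A gene silent in the translocation tumours could pass it through some of the Rosa26 tumours. A gene silent in the Rosa26 tumours had to be expressed in every translocation tumour. Among the calls, 13 had 0 counts in all translocation tumours and 0 had no counts in all Rosa26 tumours. How much of the size difference came from the filter was not tested. An unadjusted p under 0.05 was found at 4036 genes. The values of the groups did not overlap at 1296 tested genes (7.43%), of which 599 were called. Across all genes the median log2 fold change was -0.003. With 18T1E kept 460 genes passed (194 higher, 266 lower), and 406 were shared, 54.6% of the calls without 18T1E and 88.3% of those with it. Leaving out each of the 10 tumours in turn, 150 genes were called in every fit (51 higher, 99 lower), and these are treated here as the core of the comparison. Such fits do not address sex, and 60 of the 150 were also called with sex as a covariate.

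Several properties of the libraries moved with genotype. In Rosa26 tumours 1 and 4, the female ones, lay the lowest Rosa26 value for 333 of the 451 genes called lower (73.8%). These tumours stood out in more than sex. Tumour 1 had the highest summed level of skeletal muscle genes, 99250 CPM. Tumour 4 had 30.0% ribosomal sequence models and the lowest Rosa26 depth, 6.82 M counts. Within the Rosa26 group sex cannot be told apart from these properties, also in the fits with sex as a covariate. With sex as a covariate, 143 genes were called (22 higher, 121 lower), and 81 of the 744 were among them. In the 6 female tumours alone 1 gene was called. Of the called genes, 662 could be tested there, and 662 kept their direction. These tumours also entered the fit that picked the genes, so their direction was largely fixed by that choice and is no test of sex. Transcript length moved with genotype as well, as the plot of calls by length shows. In the shortest quintile of 14275 protein-coding genes 149 were higher and 43 lower, with a median log2 fold change of 0.40. In the longest quintile 7 were higher and 174 lower, with a median of -0.40. Within each library, the shortest quintile lay below the longest by 1.28, 1.18, 1.38 and 1.32 on the log2 CPM scale in translocation tumours 1 to 4 and by 1.57 to 2.33 in the Rosa26 tumours, without overlap. With the length trend removed from every library, 480 genes were called (184 higher, 296 lower), 439 of them among the 744. What part sex or transcript length had in single results was not tested beyond these fits.

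**Figure D1:**
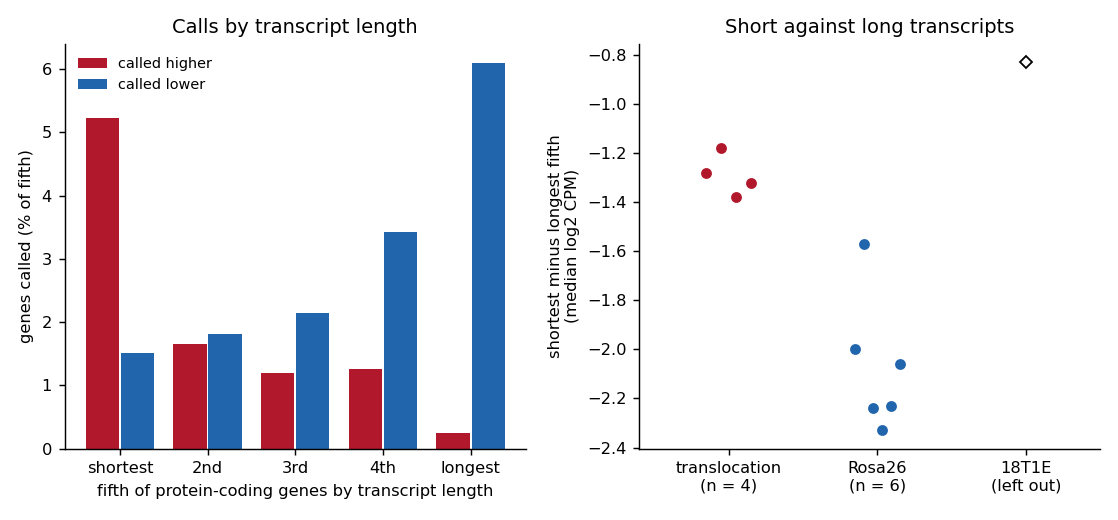
Left, the percentage of protein-coding genes called higher (red) or lower (blue) in the translocation tumours, by quintile of transcript length; right, the median log2 CPM of the shortest quintile minus that of the longest quintile, 1 point per library. The share called higher went from 5.22% in the shortest to 0.245% in the longest quintile and the share called lower from 1.51% to 6.09%, and the 4 translocation tumours all lay above the 6 Rosa26 tumours.

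Since the fusion binds through ATF1, the promoters of the called genes were searched for the full cAMP response element TGACGTCA, its shorter core TGACG, the AP-1 site TGANTCA and the MITF-type E-box CATGTG, on both strands, in the 250 bases before and 50 after the start (RefSeq, GRCm38.p6). The full element contains that core. It lay in 3.42% of the 11711 tested genes with a promoter sequence, in 7 of 223 genes called higher (3.14%) and in 9 of 330 called lower (2.73%). The core was in 33.7%, 32.7% and 26.4%, the AP-1 site in 6.38%, 8.52% and 9.09%, and the E-box in 10.4%, 10.8% and 8.48%. Of the called genes described here, 4 hold the full element, and their promoters are shown because the fusion's own recognition sequence can be read in them in genes that moved in both directions. Each runs 5′ to 3′ on the strand of the gene, with the element in capitals: Gzmg at chr14:56159530-56159829 (minus strand), Hhip at chr8:80057959-80058258 (minus), Creb5 at chr6:53287053-53287352 (plus) and Btg2 at chr1:134079106-134079405 (minus).
Gzmg: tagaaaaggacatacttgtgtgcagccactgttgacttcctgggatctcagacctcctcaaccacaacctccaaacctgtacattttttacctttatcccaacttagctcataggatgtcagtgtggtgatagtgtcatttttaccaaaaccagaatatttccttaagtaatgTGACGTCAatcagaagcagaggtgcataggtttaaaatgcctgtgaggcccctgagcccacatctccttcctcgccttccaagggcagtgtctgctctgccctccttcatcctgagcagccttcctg
Hhip: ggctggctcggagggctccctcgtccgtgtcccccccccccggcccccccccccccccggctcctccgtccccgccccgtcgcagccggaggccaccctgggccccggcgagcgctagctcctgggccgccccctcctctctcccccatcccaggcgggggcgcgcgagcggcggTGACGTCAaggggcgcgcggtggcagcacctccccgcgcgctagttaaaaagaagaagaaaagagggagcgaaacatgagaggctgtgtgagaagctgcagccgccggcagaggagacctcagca
Creb5: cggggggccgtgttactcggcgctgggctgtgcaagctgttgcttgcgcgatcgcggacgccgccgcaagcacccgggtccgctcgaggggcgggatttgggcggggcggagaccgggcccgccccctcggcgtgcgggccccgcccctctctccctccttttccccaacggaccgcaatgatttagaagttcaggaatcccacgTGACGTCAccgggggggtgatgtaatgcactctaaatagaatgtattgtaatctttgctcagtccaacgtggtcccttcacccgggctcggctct
Btg2: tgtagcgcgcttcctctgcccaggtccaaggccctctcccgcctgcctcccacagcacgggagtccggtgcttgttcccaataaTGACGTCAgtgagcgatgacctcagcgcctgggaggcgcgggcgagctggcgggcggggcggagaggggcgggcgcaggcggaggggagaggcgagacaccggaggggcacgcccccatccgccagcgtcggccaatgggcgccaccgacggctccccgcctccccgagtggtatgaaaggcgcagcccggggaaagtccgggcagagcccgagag
The first base of the element lay 77, 75, 45 and 166 bases before the start in Gzmg, Hhip, Creb5 and Btg2. A match describes these letters and is no evidence of binding.

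These 4 genes did not move together. Gzmg, a granzyme gene of cytotoxic lymphocytes (ENSMUSG00000040284, chromosome 14, 56156582 to 56159579), was 31.98, 5.95, 10.03 and 7.09 CPM in translocation tumours 1 to 4, and its lowest, median and highest Rosa26 values were 0, 0.0531 and 0.191 CPM. Every translocation tumour was higher than every Rosa26 tumour, with a call (log2 fold change 7.81 ± 0.81, edgeR adjusted p = 0.00694), in 10 of 10 leave-one-out fits. 18T1E had 0 CPM. Granzyme genes lie in clusters of close copies, so reads may be shared among them. Hhip, which encodes the decoy receptor that binds and blunts Hedgehog ligands (ENSMUSG00000064325, chromosome 8, 79965851 to 80058006), was 4.86, 11.9, 3.03 and 55.5 CPM in the translocation tumours, against 119, 629 and 1917 CPM as the lowest, median and highest Rosa26 values. All 4 lay below the 6 Rosa26 tumours, and Hhip fell (log2 fold change -5.45 ± 1.17, edgeR adjusted p = 0.0304). Creb5, a CREB family factor, and Btg2, an antiproliferative p53 target, fell too (log2 fold changes -1.12 ± 0.27 and -1.69 ± 0.32, edgeR adjusted p = 0.0446 and 0.0209). The calls of Hhip, Creb5 and Btg2 held in 5, 3 and 9 of 10 leave-one-out fits. Hhip lost its call without translocation tumours 1, 2 or 3 or the Rosa26 tumours 3 or 6, Creb5 without translocation tumours 1, 3 or 4 or the Rosa26 tumours 2, 3, 5 or 6, and Btg2 without Rosa26 tumour 3.

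Among cAMP and CREB targets more widely, 0 of 26 tested genes rose and 3 fell, against 1.68% and 2.59% over all genes. Their median was -0.65 (-0.63 with 18T1E kept, -0.13 with sex as a covariate). Nr4a3, an orphan nuclear receptor gene induced by cAMP, was 3.997, 12.9, 12.3 and 34.8 CPM in translocation tumours 1 to 4, against Rosa26 values of 96.6, 393 and 424 CPM (lowest, median, highest). The groups were apart, and Nr4a3 fell (log2 fold change -4.27 ± 0.69, edgeR adjusted p = 0.0113), in all 10 leave-one-out fits. Bdnf, a neurotrophin gene with a classical cAMP response element, fell by 2.04 (edgeR adjusted p = 0.0466), but its call held in 1 of 10 leave-one-out fits, without Rosa26 tumour 1 alone. Of 30 genes for phosphodiesterases and PKA subunits, which end or carry the cAMP signal, 0 rose and 1 fell, against 4.27% called over all genes. That gene was Pde3b, at -1.65 (edgeR adjusted p = 0.024), and 18T1E stood at 88.1 CPM, above all 10 other tumours. With 18T1E kept its log2 fold change was -0.29, and without it the call ended in turn when translocation tumours 1 or 2 or the Rosa26 tumour 3 were left out.

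The genes that rose most, among core genes at 5 CPM or more in a group, included Sertm1, Khdrbs2, Lrrtm3, Rnf182 and Egfl7. Sertm1, a small membrane protein gene, was 7.67, 28.2, 196 and 3.18 CPM in translocation tumours 1 to 4, against Rosa26 values of 0.0865, 0.324 and 1.11 CPM (lowest, median, highest). Tumour 3 stood far above the rest, all 4 were above the Rosa26 tumours, and Sertm1 rose (log2 fold change 6.95 ± 1.13, edgeR adjusted p = 0.0119). Khdrbs2, an RNA-binding protein gene of the brain, was 1.84, 11.4, 31.9 and 0.964 CPM against 0, 0.283 and 0.424 CPM, again without overlap (log2 fold change 5.45 ± 0.97, edgeR adjusted p = 0.016). 18T1E did not share this rise, at 0.105 CPM. Lrrtm3, a synaptic adhesion gene, and Rnf182, a ubiquitin ligase gene, rose too (log2 fold changes 4.46 ± 0.74 and 3.19 ± 0.57, edgeR adjusted p = 0.0122 and 0.016). Lrrtm3 was the only gene to rise among 21 tested synaptic adhesion genes, against 1.68% over all genes (list median 0.69, and 0.05 without translocation tumour 3). In that list 1 gene fell, against 2.59% over all genes. That gene was Nlgn1, a neuroligin of excitatory synapses, at 0.648, 0.991, 0.847 and 0.17 CPM against 1.84, 12.2 and 42.1 CPM, without overlap (log2 fold change -4.74 ± 0.90, edgeR adjusted p = 0.0204), and its call was lost without translocation tumour 1. Gap43, a growth cone protein gene, and Iqsec3, a gene of inhibitory synapses, fell in all 10 leave-one-out fits (log2 fold changes -5.39 ± 0.90 and -6.98 ± 1.05, edgeR adjusted p = 0.0122 and 0.0107). Egfl7, an endothelial secreted factor that shapes vessels, was the most abundant of the genes named in this set, at 279.8, 733, 540.4 and 428 CPM against 35.3, 68.1 and 127 CPM (log2 fold change 2.79 ± 0.40, edgeR adjusted p = 0.0106). Its Rosa26 range again held 18T1E, at 46.9 CPM. Of 21 tested endothelial and pericyte genes 0 rose and 1 fell, against 4.27% called over all genes. The one that fell was the lymphatic receptor gene Flt4 (list median -0.84, and -0.55 without translocation tumour 1).

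Osteocalcin rose in the translocation tumours, while the cartilage genes Col2a1, Acan and Sox9 fell. Bglap, which encodes the bone matrix protein osteocalcin (ENSMUSG00000074483, chromosome 3, 88383501 to 88384464), was 6.27, 2.48, 4.63 and 8.34 CPM in translocation tumours 1 to 4, against Rosa26 values of 0, 0.219 and 0.402 CPM (lowest, median, highest). Bglap2, a neighbouring near-copy that can share its reads, was 12.6, 9.91, 3.56 and 10.6 CPM against 0, 0.5 and 1.21 CPM. Both were higher in each of the 4 tumours (log2 fold changes 4.54 ± 0.65 and 4.04 ± 0.65, edgeR adjusted p = 0.0106 and 0.0113), and 18T1E had 0.21 CPM of each, within the Rosa26 range. Spp1, the secreted phosphoprotein osteopontin of bone and of macrophages, was 571, 68.4, 1718 and 557 CPM against 43.6, 72.6 and 177 CPM. Translocation tumour 2 lay within the Rosa26 range and the other 3 above it (log2 fold change 3.01 ± 0.69, edgeR adjusted p = 0.0381), but only the fits without translocation tumour 2 or without Rosa26 tumour 1 kept the call. The osteoblast genes Sp7, Ibsp and Runx2 did not pass, at 1.77, 3.06 and 0.29 (edgeR adjusted p = 0.153, 0.176 and 0.753).

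The cartilage collagens went the other way. Col2a1, the main collagen of cartilage, was 0.54, 2.97, 0.847 and 0.0567 CPM in translocation tumours 1 to 4, against Rosa26 values of 3.44, 73.3 and 362 CPM (lowest, median, highest). All 4 were below the Rosa26 tumours, of which tumour 1 was lowest, and Col2a1 fell (log2 fold change -7.23 ± 1.51, edgeR adjusted p = 0.0288). 18T1E had 570.3 CPM, above all other tumours, and the log2 fold change with it kept was 0.03. Col9a2, which encodes a chain of the collagen on the surface of those fibrils, was 0.216, 0, 0.267 and 0.397 CPM against 1.54, 25.6 and 92.6 CPM and fell (log2 fold change -6.85 ± 1.16, edgeR adjusted p = 0.0125). Col9a3, another chain of it, and Col11a2, a chain of the collagen inside the fibrils, fell (log2 fold changes -6.09 ± 1.23 and -3.88 ± 0.84, edgeR adjusted p = 0.0262 and 0.0325). Of these, Col9a3 turned to 0.09 and Col9a2 shrank to -1.14 with 18T1E kept, while Col11a2 had -4.16.

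Acan, the large aggregating proteoglycan of cartilage, was 0.108, 0.496, 14.4 and 8.903 CPM in translocation tumours 1 to 4, against Rosa26 values of 15.4, 669 and 1699 CPM (lowest, median, highest), and fell (log2 fold change -6.81 ± 1.67, edgeR adjusted p = 0.045). Translocation tumour 3 lay just under the lowest Rosa26 tumour. Sox9, the master regulator of cartilage, was 19.99, 20.3, 8.96 and 14.7 CPM against 18.9, 94.4 and 164 CPM, where Rosa26 tumour 1 reached into the translocation range (log2 fold change -2.56 ± 0.53, edgeR adjusted p = 0.0278). Of 17 tested cartilage and bone genes, 2 rose and 3 fell, and the median was 0.23, so the list had no common direction, and without translocation tumour 3 or 4 its median was -0.87 or -0.44 (0.14 to 0.58 without 1 of the Rosa26 tumours). The collagen family as a whole had 0 higher and 6 lower calls among 42 tested (14.3% called, median -0.83). The call of Col9a2 was lost without translocation tumour 1 alone. Col2a1 and Sox9 lost theirs without translocation tumours 1, 3 or 4 or the Rosa26 tumours 3 or 6. Col9a3 and Col11a2 lost theirs without any 1 of the translocation tumours or Rosa26 tumours 3 or 6, and Acan kept it only without Rosa26 tumours 1 or 5.

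Smoc1, Frem2, Fbn1 and Col4a1 were other matrix genes that fell. Smoc1, a secreted calcium-binding regulator of BMP signalling at basement membranes (ENSMUSG00000021136, chromosome 12, 81026808 to 81186414), was 2.05, 2.97, 1.29 and 1.42 CPM in translocation tumours 1 to 4, against Rosa26 values of 28.4, 124 and 276 CPM (lowest, median, highest). The gap between the groups was wide, and Smoc1 fell (log2 fold change -6.21 ± 0.78, edgeR adjusted p = 0.0079) in all 10 leave-one-out fits. Frem2, a basement membrane protein that ties epithelium to dermis, was 2.16, 1.49, 6.37 and 4.08 CPM against 25.2, 159 and 212 CPM and fell (log2 fold change -5.28 ± 0.65, edgeR adjusted p = 0.0079). 18T1E lay within the Rosa26 range for both, at 54.97 CPM and 116 CPM, and neither gene was called with it kept (log2 fold changes -3.37 and -2.48, edgeR adjusted p = 0.098 and 0.177). Fbn1, the main fibrillin of microfibrils, was 172, 114, 25.9 and 96.1 CPM against 173, 629 and 1017 CPM. Translocation tumour 1 almost reached the lowest Rosa26 tumour, and the call (log2 fold change -2.53, edgeR adjusted p = 0.0408) held in 1 of 10 leave-one-out fits, that without Rosa26 tumour 1. Col4a1, a basement membrane collagen gene, fell by 2.12 (edgeR adjusted p = 0.0405) and held in 3 of 10 fits, those without Rosa26 tumours 1, 2 or 4.

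Laminins are the cross-shaped adhesion proteins of basement membranes, and the genes of 3 of their chains are described here for their calls. Lama2, the chain of muscle and Schwann cell basement membranes, was 45.3, 30.7, 11.9 and 22.8 CPM in translocation tumours 1 to 4, against Rosa26 values of 133, 331 and 596 CPM (lowest, median, highest). The groups were apart, and Lama2 fell (log2 fold change -3.61 ± 0.55, edgeR adjusted p = 0.0112). Lama3, a chain of epithelial basement membranes, and the widely expressed chain Lamc1 fell (log2 fold changes -2.82 and -1.62, edgeR adjusted p = 0.0308 and 0.0453). The call of Lama2 held in all 10 leave-one-out fits, Lama3 in 5, ending without translocation tumours 1, 2 or 3 or the Rosa26 tumours 3 or 6, and Lamc1 only without Rosa26 tumour 1.

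Epithelial genes were lower in the translocation tumours as a group. Of 15 tested epithelial identity genes 0 rose and 9 fell, against 1.68% and 2.59% over all genes. Groups were apart at 10 of them, against 7.43% over all genes. All 15 log2 fold changes were negative, with a median of -4.47 against -0.003 for all genes. Of the list's 22 members 15 were tested. Their mean level was only -0.52 to 0.21 on the log2(CPM + 0.5) scale in translocation tumours 1 to 4. As a set they thus passed the expression filter mainly through the Rosa26 tumours. That choice favours negative signs, so the shared sign is a description and no test. That median was -4.59 with 18T1E kept, -3.33 with sex as a covariate and -4.42 with the length trend removed. Summed over the list the level was 4.50 to 26.4 CPM in translocation tumours 1 to 4, 31.6 to 403 CPM across Rosa26 tumours and 41.1 CPM in 18T1E. Within the Rosa26 group, tumours 4 and 5 had the lowest mean levels, at most 1.39 on the log2(CPM + 0.5) scale, and the other 4 had up to 3.34, so the epithelial signal also varied among them.

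Krt8, the simple-epithelium keratin (ENSMUSG00000049382, chromosome 15, 101996698 to 102004482), was 0, 0.496, 0.0446 and 0.397 CPM in translocation tumours 1 to 4, against Rosa26 values of 1.72, 32.2 and 70.6 CPM (lowest, median, highest), and fell (log2 fold change -7.50 ± 1.32, edgeR adjusted p = 0.0149). Epcam, the epithelial adhesion molecule, was 0.54, 0.496, 0.134 and 0.113 CPM against 1.15, 20.9 and 59.9 CPM and fell (log2 fold change -6.57 ± 1.22, edgeR adjusted p = 0.0191). In both genes Rosa26 tumour 4 was lowest and came close to the translocation tumours without meeting them. Esrp1, which directs epithelial splicing, had 0 counts in all 4 translocation tumours and 1025 in the Rosa26 tumours, at least 167-fold lower against a floor of 3 counts over the group (edgeR adjusted p = 0.0288). St14, a membrane serine protease of epithelia, fell by 4.47 (edgeR adjusted p = 0.0135). The calls of Krt8, Epcam and St14 ended only on leaving out translocation tumour 1, and that of Esrp1 without translocation tumours 1, 3 or 4 or the Rosa26 tumours 3 or 6.

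The keratin family had the largest share of calls among the 58 families with at least 8 genes tested: 1 of 14 was higher and 5 lower (42.9%), with a median of -2.19. Krt39 and Krt25 are hair keratins, the second of the inner root sheath. Krt39 was 0, 0, 0.0446 and 0.454 CPM in translocation tumours 1 to 4, against Rosa26 values of 3.19, 6.42 and 9.76 CPM (lowest, median, highest). Krt25 was 0, 0.496, 0 and 1.53 CPM against 7.87, 29.2 and 59.2 CPM. Neither gene's groups met, and both fell (log2 fold changes -5.21 ± 0.84 and -5.76 ± 1.14, edgeR adjusted p = 0.0113 and 0.0236). Krt80 fell by 1.98 (edgeR adjusted p = 0.012), and Krt19 fell by 4.82 (edgeR adjusted p = 0.0467). Krt18, the partner of Krt8, missed the threshold at -4.50 (edgeR adjusted p = 0.0559). Krt25 lost its call without translocation tumour 1 or Rosa26 tumour 3, and had -9.42 without translocation tumour 4, the highest of the 4. Krt39 and Krt80 kept theirs in all 10 fits. Of 8 tested epidermal keratinocyte genes 0 rose and 1 fell, at a median of -2.43, which was -0.58 with sex as a covariate.

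Claudins, which seal tight junctions, split by member: 1 of 11 was higher and 3 lower (36.4% called, median -0.50). Cldn2, a leaky-epithelium claudin, was 0.648, 2.48, 1.83 and 1.87 CPM in translocation tumours 1 to 4 and at 5.93, 10.03 and 24.2 CPM in the Rosa26 tumours (lowest, median, highest), and fell (log2 fold change -2.82 ± 0.54, edgeR adjusted p = 0.0209). Cldn3, a common epithelial claudin, fell by 3.48 (edgeR adjusted p = 0.0447) in 2 of 10 leave-one-out fits. Cldn15, a cation-pore claudin, went the other way, at 3.46, 5.45, 11.1 and 48.8 CPM against 0.191, 1.66 and 2.83 CPM (log2 fold change 3.30 ± 0.74, edgeR adjusted p = 0.0364). Translocation tumour 4 was the highest, and without it the log2 fold change was 1.94. Cldn22, with 3 counts in all in the translocation tumours, fell by 4.23 without 18T1E (edgeR adjusted p = 0.0441) and had 0.20 with it, with 6.42 CPM in 18T1E. It was called in 3 of 10 leave-one-out fits and not tested in 4 others, and had -7.18 without translocation tumour 4. The Cldn2 call was lost without translocation tumour 1, that of Cldn15 was kept only on leaving out translocation tumours 1 or 2 or the Rosa26 tumours 1 or 4, and that of Cldn3 only without Rosa26 tumours 1 or 4.

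**Figure D2:**
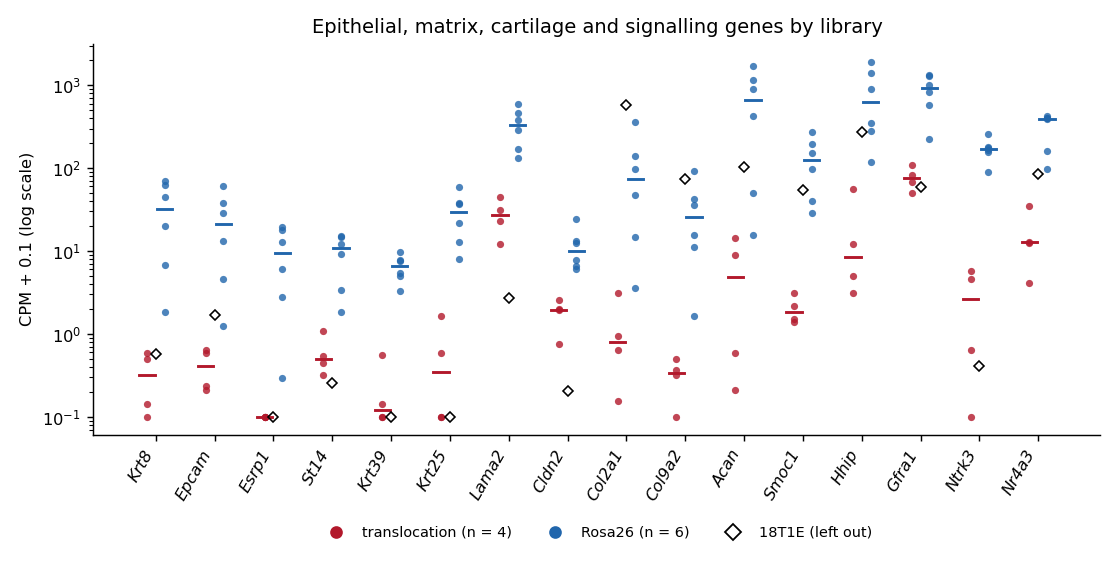
CPM plus 0.1 on a log axis for epithelial, matrix, cartilage and signalling genes; each red point is a translocation tumour (n = 4), each blue point a Rosa26 tumour (n = 6), short lines are group medians, and open diamonds show 18T1E, which was not in the fit. For Col2a1 18T1E lay above all other tumours at 570.3 CPM, while for Ntrk3 it lay with the translocation tumours at 0.316 CPM.

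The genes that fell furthest were nearly silent in all 4 translocation tumours. Vwde, which encodes a protein with von Willebrand factor and EGF domains (ENSMUSG00000079679, chromosome 6, 13156299 to 13224965), had 0 counts there and 10759 in the Rosa26 tumours, at least 1660-fold lower (edgeR adjusted p = 0.012). Its Rosa26 values were 7.27, 111 and 176 CPM (lowest, median, highest). Nps, which encodes the arousal peptide neuropeptide S (ENSMUSG00000073804, chromosome 7, 135258703 to 135272942), held 3 counts in the translocation tumours, where values were 0.216, 0, 0.0446 and 0 CPM, against 8.04, 202 and 478 CPM in the Rosa26 tumours (log2 fold change -11.54, edgeR adjusted p = 0.0106). Cib4, of the calcium- and integrin-binding family, had 0 counts against 837, at least 134-fold lower (edgeR adjusted p = 0.0079). Rosa26 tumour 4 had the lowest Rosa26 value for all 3. Tpsg1, a membrane-anchored tryptase gene, and F2rl1, the protease-activated receptor that tryptases and St14 can cleave, fell (log2 fold changes -8.44 and -7.62, edgeR adjusted p = 0.0079 and 0.0079). Chmp4c, a gene of the machinery that cuts the last bridge of dividing cells, was 0.108, 0, 0.0446 and 0.0567 CPM against 2.49, 6.59 and 18.2 CPM and fell by 6.85 (edgeR adjusted p = 0.0079), yet 18T1E matched the highest Rosa26 tumour at 18.2 CPM, and with it kept the log2 fold change was -1.04 (edgeR adjusted p = 0.664). These calls held in all 10 leave-one-out fits.

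**Figure D3:**
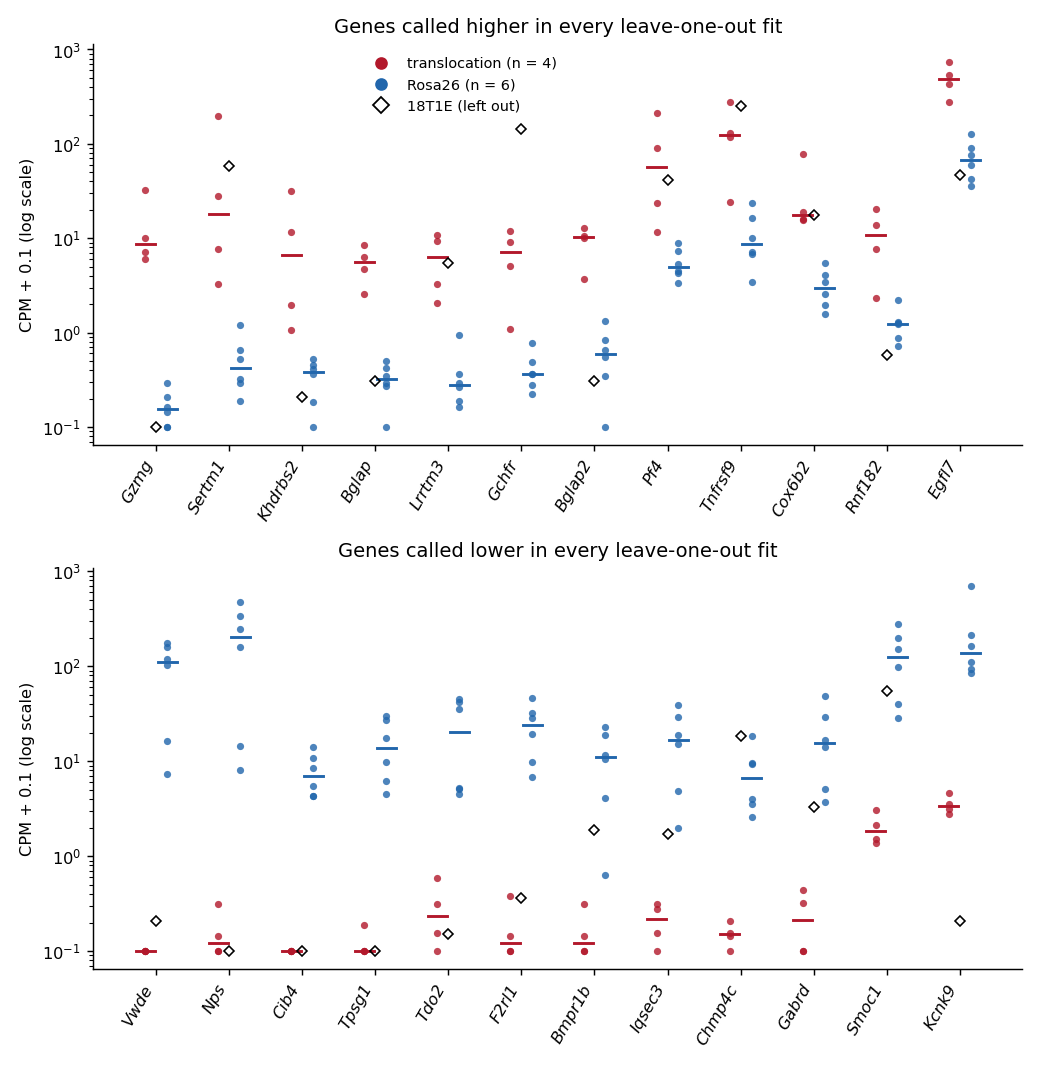
CPM plus 0.1 on a log axis for the 12 core genes with the largest rise (top) and the 12 with the largest fall (bottom); points are libraries, short lines group medians, and open diamonds 18T1E, which was not in the fit. In all 24 genes the 4 translocation tumours and the 6 Rosa26 tumours do not overlap, and 18T1E lies with the Rosa26 tumours for Gzmg, Khdrbs2 and Chmp4c and with the translocation tumours for Sertm1, Tdo2 and Cib4.

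Neuronal genes were low in the translocation tumours, and among the Rosa26 tumours the female ones were lower. Of 14 tested neuronal genes 0 rose and 3 fell, and all 14 log2 fold changes were negative (median -2.27). A gene silent in the translocation tumours, as Slc17a6 was, passes the filter through the Rosa26 tumours alone, which fixes its sign. The mean level was 0.94 to 1.71 on the log2(CPM + 0.5) scale in the translocation tumours, 2.01 and 2.57 in the female Rosa26 tumours 1 and 4 and 3.98 to 4.56 in the 4 male ones. With sex as a covariate the median was -0.45, and in female tumours alone it was -0.33. Sex cannot be told apart here from the muscle content of Rosa26 tumour 1 or the library quality of Rosa26 tumour 4. Slc17a6, a vesicular glutamate transporter gene, had 0 counts in the translocation tumours and 2682 in the Rosa26 tumours, at least 386-fold lower (edgeR adjusted p = 0.0308), but its lowest Rosa26 value, in tumour 1, was 0.676 CPM. Nefh, the heavy neurofilament, and Elavl4, a neuronal RNA-binding protein gene, fell (log2 fold changes -5.60 and -4.96, edgeR adjusted p = 0.0236 and 0.0196). These calls held in 4, 7 and 7 of 10 leave-one-out fits, and all 3 were lost without translocation tumours 1 or 4. With 18T1E kept Elavl4 had -0.94.

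Of 21 tested neuropeptide precursor, granin and convertase genes 0 rose and 2 fell, with a median of -1.53 that turned to 0.98 with sex as a covariate (-2.38 and -2.35 without translocation tumours 2 and 3). The genes that passed were Nps and Pdyn, the dynorphin precursor, which held 1 count in the translocation tumours and 281 in the Rosa26 tumours (edgeR adjusted p = 0.0294). Pdyn lost its call without any of the translocation tumours or without Rosa26 tumour 3. Among members that did not pass the filter, 6 were under 1 CPM in each of the 10 tumours. Pcsk2 and Nts reached 14.9 and 1.30 CPM in a translocation tumour against at most 1.99 and 0.491 CPM in a Rosa26 tumour. Calcb and Nmu reached 2.48 and 3.74 CPM against 2.32 and 4.87 CPM. Axon guidance genes had 0 higher and 5 lower calls among 38 tested, against 1.68% and 2.59% over all genes, with a list median of -0.77. Plxnb1, a semaphorin receptor gene, was 5.62, 23.3, 16.04 and 30.96 CPM in translocation tumours 1 to 4, against Rosa26 values of 33.4, 114 and 155 CPM (lowest, median, highest), without overlap (log2 fold change -2.47 ± 0.52, edgeR adjusted p = 0.0288). Ntn1, the netrin ligand, the Slit receptor gene Robo2 and the ligand gene Slit3 fell (log2 fold changes -3.98, -4.93 and -1.81, edgeR adjusted p = 0.0349, 0.039 and 0.039). Robo2 had -7.83 without translocation tumour 3 and -1.82 with 18T1E kept. Their calls held in 5, 4, 3 and 1 of 10 leave-one-out fits. All 4 were lost without translocation tumours 1 or 2 or the Rosa26 tumours 3 or 6.

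Of 45 tested voltage-gated ion channel genes of nerve and muscle 0 rose and 2 fell, against 4.27% called over all genes. In that list 38 had negative log2 fold changes, and the summed level was 714 to 860.2 CPM in translocation tumours 1 to 4 against 1194 to 1693 CPM in the Rosa26 tumours. The median was -0.72, and it was -0.75 with sex as a covariate and -0.61 with the length trend removed. Cacnb4, a calcium channel beta subunit gene, was 4.75, 2.97, 3.699 and 7.26 CPM against Rosa26 values of 23.1, 55.6 and 71.6 CPM (lowest, median, highest), and fell (log2 fold change -3.39 ± 0.46, edgeR adjusted p = 0.00943) in all 10 leave-one-out fits. Kcnk9, an acid-sensitive background potassium channel gene, was 2.701, 3.47, 4.501 and 3.06 CPM against 85.2, 138 and 692 CPM and fell (log2 fold change -6.04 ± 0.77, edgeR adjusted p = 0.0079). Its highest value was in Rosa26 tumour 5, and 18T1E was lower still than the translocation tumours, at 0.105 CPM. Kcnk3, its closest relative, fell by 3.97 (edgeR adjusted p = 0.0318), and Gabrd, a GABA receptor subunit gene, fell by 6.58 (edgeR adjusted p = 0.0113). In the whole potassium channel family 2 of 61 genes were higher and 6 lower (13.1% called). Kcnk3 lost its call without translocation tumours 1, 3 or 4 or the Rosa26 tumours 3, 5 or 6.

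Receptor kinase genes and their ligands had 1 higher and 5 lower calls among 43 tested, against 1.68% and 2.59% over all genes. The list median was -0.54, and -0.21 with sex as a covariate. Ntrk3, the neurotrophin-3 receptor kinase (ENSMUSG00000059146, chromosome 7, 78175959 to 78738012), was 5.62, 0, 0.535 and 4.54 CPM in translocation tumours 1 to 4, against Rosa26 values of 88.4, 169.8 and 256 CPM (lowest, median, highest), and fell (log2 fold change -5.87 ± 0.81, edgeR adjusted p = 0.0101). Gfra1, the co-receptor through which GDNF activates Ret, was 49.9, 82.3, 68.6 and 108 CPM against 222, 918 and 1314 CPM. The 2 ranges did not meet, and Gfra1 fell (log2 fold change -3.50 ± 0.53, edgeR adjusted p = 0.011). Fgf1 fell by 4.26 (edgeR adjusted p = 0.0123). All 3 held in every leave-one-out fit, and 18T1E lay within or beyond the translocation range, at 0.316 CPM, 58.6 CPM and 0.263 CPM. Igf1r, the IGF receptor kinase, fell by 1.55 (edgeR adjusted p = 0.0483), a call that was kept only on leaving out translocation tumour 2 or Rosa26 tumour 1. Itpr2, a calcium release channel gene downstream of such receptors, fell by 3.58 (edgeR adjusted p = 0.0278), with its highest value, 1901 CPM, in Rosa26 tumour 5, and its call was lost without translocation tumours 1, 2 or 3.

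In the BMP and TGF beta list 0 of 34 genes rose and 4 fell, against 1.68% and 2.59% over all genes. In it 12 log2 fold changes were positive. The median was -0.32, which was -0.06 without Rosa26 tumour 4 and -0.49 without translocation tumour 3 or 4. Grem1, a secreted BMP antagonist, was 0.756, 2.97, 0.713 and 0.964 CPM in translocation tumours 1 to 4, against Rosa26 values of 3.93, 31.2 and 68.1 CPM (lowest, median, highest), and fell (log2 fold change -5.07 ± 0.81, edgeR adjusted p = 0.0113). Inhba, which encodes the activin A subunit, was 9.07, 0.991, 22.2 and 4.08 CPM against 71.96, 189.9 and 252 CPM and fell (log2 fold change -4.16 ± 0.72, edgeR adjusted p = 0.0141). The ligand gene Gdf5 and the antagonist gene Nog fell (log2 fold changes -3.46 and -2.55, edgeR adjusted p = 0.0455 and 0.0466). Bmpr1b, the BMP receptor that Gdf5 prefers, was 0.216, 0, 0.0446 and 0 CPM against 0.536, 10.9 and 22.9 CPM and fell (log2 fold change -7.31 ± 1.28, edgeR adjusted p = 0.0148). These 5 genes encode ligands, antagonists and a receptor. Grem1 and Bmpr1b kept their calls in all 10 leave-one-out fits, Inhba lost it without translocation tumour 1, Gdf5 kept it only on leaving out translocation tumour 2 or Rosa26 tumour 1, and Nog only on leaving out translocation tumour 4 or Rosa26 tumour 1. With 18T1E kept, at 1.79 CPM, Bmpr1b had -4.57 (edgeR adjusted p = 0.0629).

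Among Wnt genes 0 of 39 rose and 2 fell, against 4.27% called over all genes. Their median was -0.73, and -0.25 without Rosa26 tumour 4. Sfrp5, a secreted Wnt antagonist, was 0.324, 2.48, 0 and 0.567 CPM in translocation tumours 1 to 4, against Rosa26 values of 18, 257 and 441 CPM (lowest, median, highest), and fell (log2 fold change -8.89 ± 1.49, edgeR adjusted p = 0.0123), a call that was lost without translocation tumour 1. The co-receptor gene Lrp5 fell by 1.26 (edgeR adjusted p = 0.0468), a call that was kept only without Rosa26 tumour 1. Of 18 Notch pathway genes 0 passed edgeR's test (6 at an unadjusted p under 0.05, 1 by DESeq2 and 0 by limma voom), and 17 log2 fold changes were negative (median -0.71). Of 37 limb and regional transcription factor genes 1 rose and 1 fell, with 20 positive (median 0.14, and -0.08 without translocation tumour 3). Of 24 Hox genes 0 rose and 2 fell, with 18 positive. The Hox median was 0.24, and it was 0.69 without translocation tumour 3 and -0.39 with sex as a covariate. Summed over the tested Hox genes, translocation tumour 3 had 2.27 CPM. The other translocation tumours had 189 to 304 CPM and the Rosa26 tumours 135 to 280 CPM. Tbx15, a limb and skin T-box factor gene, was 46.7, 31.7, 37.6 and 65.7 CPM against 115, 149 and 203 CPM and fell (log2 fold change -1.73 ± 0.27, edgeR adjusted p = 0.0113), and Hoxc11, a posterior Hox gene, fell by 4.68 (edgeR adjusted p = 0.0189). Foxf1, a visceral mesoderm factor gene, rose by 3.83 (edgeR adjusted p = 0.0399), with 42.5, 33.7, 3.48 and 0.624 CPM in the 4 tumours, where tumours 1, 2 and 3 were above the Rosa26 range and tumour 4 below it. Tbx15 held in all 10 leave-one-out fits, Hoxc11 was lost without translocation tumour 1, and Foxf1 was kept only on leaving out translocation tumours 3 or 4 or the Rosa26 tumour 1.

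**Figure D4:**
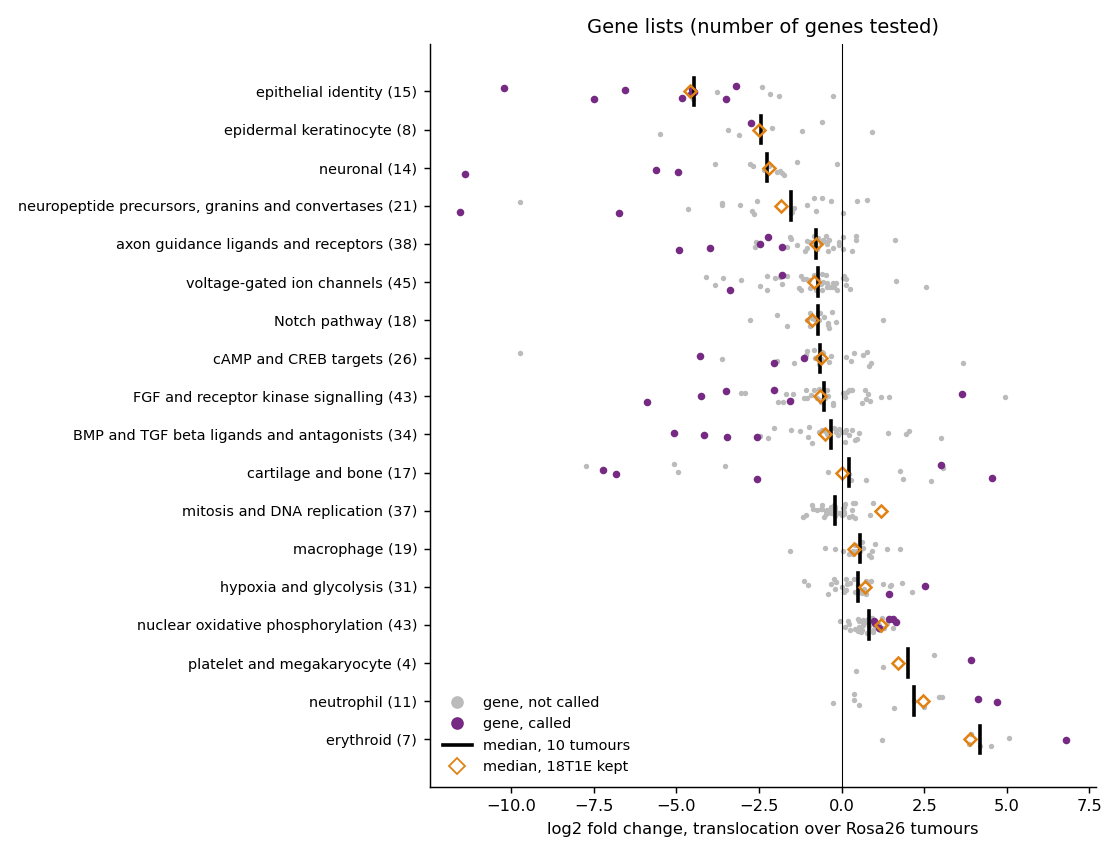
Log2 fold changes of the tested genes in 18 lists; purple points are called genes, grey points are not called, black bars mark the list's median in the 10 tumours and orange diamonds the median with 18T1E kept. The epithelial list sits lowest at -4.47 and the erythroid list highest at 4.18, and the mitosis list is the one where the medians part most, at -0.21 and 1.20.

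Of 43 tested nuclear genes of oxidative phosphorylation 6 rose and 0 fell, where 1.68% of all genes were called higher. In that list 42 log2 fold changes were positive, with a median of 0.84. Groups were apart at 18 of the 43, against 7.43% over all genes. Cox4i1, a subunit of cytochrome c oxidase, was 800.3, 739, 412 and 468 CPM in translocation tumours 1 to 4, against Rosa26 values of 138, 189 and 350.0 CPM (lowest, median, highest), without overlap (log2 fold change 1.56 ± 0.33, edgeR adjusted p = 0.0288). Uqcrh, of complex III and outside the list, was 682, 744, 344 and 385 CPM against 91.6, 139.5 and 324 CPM (log2 fold change 1.72 ± 0.40, edgeR adjusted p = 0.04). Sdhd, of complex II, rose by 1.42, and the complex III genes Cyc1 and Uqcrq by 1.13 and 1.66 (edgeR adjusted p = 0.0248, 0.0262 and 0.0288). The complex I family Nduf had 4 higher and 0 lower calls among 47, all 47 positive, at a median of 0.92. Mitochondrial ribosome genes had 9 higher and 0 lower calls among 78, 75 of them positive (median 0.66). Mrps26 was 54.1, 44.1, 59.9 and 57.1 CPM against 19.3, 23.4 and 28.1 CPM and rose (log2 fold change 1.20 ± 0.18, edgeR adjusted p = 0.0112), in all 10 leave-one-out fits.

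These are short transcripts, and the shift of short against long transcripts moved with them. With the length trend removed the medians were 0.46 for the oxidative phosphorylation list, 0.53 for Nduf (45 of 47 positive) and 0.43 for the mitochondrial ribosome family. The cytosolic ribosomal protein genes, also short, had 2 higher and 0 lower calls among 139 (1.44% called), with a median of 0.84 that was 0.43 after removal. 18T1E was higher still for the summed oxidative phosphorylation list, at 17850 CPM against 5509 to 6685 CPM in translocation tumours 1 to 4 and 1999 to 4713 CPM in the Rosa26 tumours. The calls of Cox4i1, Uqcrq, Cyc1 and Sdhd were all lost without translocation tumour 1 or Rosa26 tumours 3, 5 or 6. Uqcrh kept its call without translocation tumour 3 or Rosa26 tumours 1 or 2. Cox6b2, the testis form of an oxidase subunit, was a core gene, at 19.01, 15.4, 78.7 and 15.9 CPM against 1.48, 2.88 and 5.36 CPM (log2 fold change 3.43 ± 0.54, edgeR adjusted p = 0.0113), with tumour 3 highest.

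In lists of stress and metabolism more genes were called higher than lower. The counts were 1 higher and 0 lower of 25 ER stress genes and 2 and 0 of 31 hypoxia and glycolysis genes. Ddit4 belongs to both lists and is counted in each. Lipid and cholesterol genes had 1 and 0 of 23, and tryptophan, tetrahydrobiopterin and polyamine enzyme genes 4 and 1 of 27. Over all genes 1.68% were called higher and 2.59% lower. Ddit4, an mTORC1 inhibitor induced by hypoxia and by stress, was 312, 189, 68.9 and 100 CPM in translocation tumours 1 to 4, against Rosa26 values of 13.8, 24.6 and 58.2 CPM (lowest, median, highest), without overlap (log2 fold change 2.52 ± 0.47, edgeR adjusted p = 0.0194). Ndrg1, another hypoxia gene, rose by 1.44 (edgeR adjusted p = 0.0342), and 23 of 31 hypoxia and glycolysis genes were positive (median 0.51). Gchfr, the feedback regulator of tetrahydrobiopterin synthesis, was 4.97, 0.991, 11.8 and 8.96 CPM against 0.124, 0.262 and 0.676 CPM (log2 fold change 4.45 ± 0.66, edgeR adjusted p = 0.0106), with 18T1E at 144 CPM. Odc1, the first enzyme of polyamine synthesis, rose by 1.14 and Tdo2, which opens the ring of tryptophan, fell by 7.84 (edgeR adjusted p = 0.0342 and 0.0123). Nos1, a nitric oxide synthase that needs tetrahydrobiopterin, was 2.16, 10.9, 9.94 and 4.71 CPM against 36.2, 96.8 and 158 CPM and fell (log2 fold change -3.82 ± 0.57, edgeR adjusted p = 0.0106). 18T1E lay among the Rosa26 tumours for Nos1, at 126 CPM. Insig1, the sterol sensor, rose by 2.10 (edgeR adjusted p = 0.0119). Gchfr, Tdo2, Nos1 and Insig1 held in all 10 leave-one-out fits, Ddit4 was lost without translocation tumour 1 or Rosa26 tumour 3, Ndrg1 without translocation tumours 1 or 2 or the Rosa26 tumours 3, 5 or 6, and Odc1 without translocation tumours 2, 3 or 4 or the Rosa26 tumours 3, 5 or 6.

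Lists of blood and immune cell genes differed in direction. Of 39 interferon and antigen presentation genes 0 rose and 2 fell, with 28 negative (median -0.54, and -0.29 without Rosa26 tumour 4), and of 33 chemokine and receptor genes 1 rose and 1 fell. Of 20 complement genes 0 passed edgeR's test (6 at an unadjusted p under 0.05, 3 by DESeq2 and 2 by limma voom), with 16 positive. Pf4, a platelet and megakaryocyte chemokine, was 209.9, 89.2, 11.4 and 23.6 CPM in translocation tumours 1 to 4, against Rosa26 values of 3.28, 4.82 and 8.74 CPM (lowest, median, highest), without overlap (log2 fold change 3.91 ± 0.68, edgeR adjusted p = 0.0145). Tnfrsf9, a costimulatory receptor of activated lymphocytes, was 131, 24.3, 277 and 117 CPM against 3.31, 8.54 and 23.8 CPM (log2 fold change 3.62 ± 0.64, edgeR adjusted p = 0.0159), with tumour 2 just above the highest Rosa26 tumour. Il18, an inflammasome cytokine gene, was 17.8, 28.2, 14.4 and 21.6 CPM against 1.72, 4.17 and 4.92 CPM and rose (log2 fold change 2.36 ± 0.32, edgeR adjusted p = 0.00943), while 18T1E had 1.999 CPM. Of the TNF and TNF receptor superfamily 3 of 29 genes were higher and 1 lower (13.8% called): the B cell ligand genes Tnfsf13 and Tnfsf13b rose by 2.01 and 2.61, and the death receptor gene Tnfrsf21 fell by 3.42 (edgeR adjusted p = 0.039, 0.0455 and 0.0119). Tnfsf13 held in 4 and Tnfsf13b in 2 of 10 leave-one-out fits, both ending without translocation tumours 1, 2 or 4 or the Rosa26 tumours 3, 5 or 6, and the other genes of this paragraph in all 10.

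Marker lists of blood cells had few tested members, and 1 library could move their medians. All 7 tested erythroid genes were positive (1 higher, 0 lower, median 4.18), and the summed level was 325 to 12810 CPM in translocation tumours 1 to 4 and 4.59 to 1067 CPM in the Rosa26 tumours. Without translocation tumour 1 the erythroid median was 1.03. Slc4a1, the red cell anion exchanger, was 164, 3.47, 0.579 and 1.93 CPM and its log2 fold change went from 6.79 to 2.26 without that tumour (edgeR adjusted p = 0.0441 with it). Of 11 neutrophil genes 2 rose and 0 fell (median 2.20, 0.80 without translocation tumour 1 and 3.62 without Rosa26 tumour 5). Clec4d, a myeloid lectin gene, was 37.2, 5.45, 1.25 and 1.25 CPM, and Mmp9, a gelatinase gene of neutrophils, was 33.3, 10.9, 407 and 3.799 CPM. Tumour 1 led in the first and tumour 3 in the second, and their log2 fold changes of 4.13 and 4.69 were 1.88 and 1.86 without those tumours. The platelet list had 1 higher and 0 lower of 4, at a median of 2.02 (1.34 without translocation tumour 3). Among members that did not pass the filter, Gp1ba, Gp9 and Gp6 had at most 1.19 CPM in any tumour. Gp1bb and Treml1 reached 3.47 and 3.57 CPM in a translocation tumour against at most 0.765 and 0.737 CPM in a Rosa26 tumour, and Ppbp reached 4.21 and 5.28 CPM. Of 19 macrophage genes 0 passed edgeR's test (2 at an unadjusted p under 0.05, 0 by DESeq2 or limma voom), at a median of 0.55 (0.11 without translocation tumour 2).

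Of 18 tested T and NK cell genes 1, Gzma, rose and 0 fell, while 13 were negative (median -1.82, and -0.83 without Rosa26 tumour 1). Cd3e, the T cell receptor subunit, had -4.68 (edgeR adjusted p = 0.0558), with Rosa26 values of 0.259, 1.43 and 13.9 CPM (lowest, median, highest) of which tumour 1 was the highest. Gzma was 60.7, 1.98, 0.802 and 12.4 CPM in translocation tumours 1 to 4 (log2 fold change 4.42 ± 0.99, edgeR adjusted p = 0.0364), with tumour 1 highest, and had 2.52 without it. The call held in 3 of 10 leave-one-out fits, those without translocation tumours 2 or 3 or the Rosa26 tumour 1. The interferon-induced chemokine gene Cxcl9 fell by 4.99 (edgeR adjusted p = 0.04), a call that was kept only without Rosa26 tumours 1 or 2. Mast cell genes had 0 higher and 1 lower call among 6 tested, which was Tpsg1.

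Some of the most abundant genes moved as well. Gpx3, a secreted glutathione peroxidase, was 1170.0, 1312, 2754 and 1446 CPM in translocation tumours 1 to 4, against Rosa26 values of 94.5, 218 and 699 CPM (lowest, median, highest), without overlap (log2 fold change 2.63 ± 0.53, edgeR adjusted p = 0.0265). Ecm1, a secreted matrix protein, was 1299, 848, 1653 and 1058 CPM against 73.7, 222 and 421 CPM (log2 fold change 2.35 ± 0.48, edgeR adjusted p = 0.0265). Qpct, the enzyme that caps secreted peptides with pyroglutamate, rose by 2.48, and Srgn, the granule proteoglycan of blood cells, by 2.74 (edgeR adjusted p = 0.0433 and 0.0352). For all 4 of these 18T1E lay far below the other translocation tumours, at 50.5 CPM, 17.6 CPM, 177 CPM and 21.4 CPM. Sdc1, a cell-surface heparan sulfate proteoglycan, rose by 1.80 (edgeR adjusted p = 0.0288), from 69.9, 145 and 278 CPM (lowest, median, highest) to 788, 443, 429 and 462 CPM. Klf6, a zinc finger factor of early responses, was 188, 176, 135 and 193 CPM against 55.5, 67.6 and 93.5 CPM and rose (log2 fold change 1.28 ± 0.20, edgeR adjusted p = 0.0113), with 18T1E at 165 CPM. Dst, a very long cytoskeletal linker, fell by 1.28 (edgeR adjusted p = 0.0393), but the call was kept only without Rosa26 tumours 1, 2 or 4. Klf6 held in 10 fits, Gpx3, Ecm1 and Sdc1 in 6, and Qpct and Srgn in 2, each of these 5 ending without translocation tumour 1 or Rosa26 tumour 3.

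At the 599 called genes whose groups were apart, 18T1E lay within the range of the other translocation tumours at 181 (30.2%), beyond it at 164 (27.4%), between the ranges at 67 (11.2%), within the Rosa26 range at 115 (19.2%) and beyond that at 72. At the 261 of them called only without it, it lay within or beyond the Rosa26 range at 103 (39.5%) and 72 (27.6%). How they were picked bears on this share, because a library on the other side can end a call. Dnah2, an axonemal dynein gene, was 3.35, 1.49, 3.21 and 6.63 CPM in translocation tumours 1 to 4, against Rosa26 values of 61, 138 and 202 CPM (lowest, median, highest), without overlap (log2 fold change -5.13 ± 0.49, edgeR adjusted p = 0.00664), while 18T1E had 68.5 CPM. Nup210, a nuclear pore protein gene, was 3.56, 7.43, 6.24 and 3.97 CPM against 23.7, 62.5 and 108 CPM and fell (log2 fold change -3.52 ± 0.49, edgeR adjusted p = 0.0106), yet 18T1E exceeded every tumour at 167 CPM. Mycl, a MYC paralog gene, fell by 2.44 without 18T1E (edgeR adjusted p = 0.0487, in 1 of 10 leave-one-out fits) and had 1.47 with it, with 39.7 CPM in 18T1E. Dnah2 and Nup210 held in all 10.

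**Figure D5:**
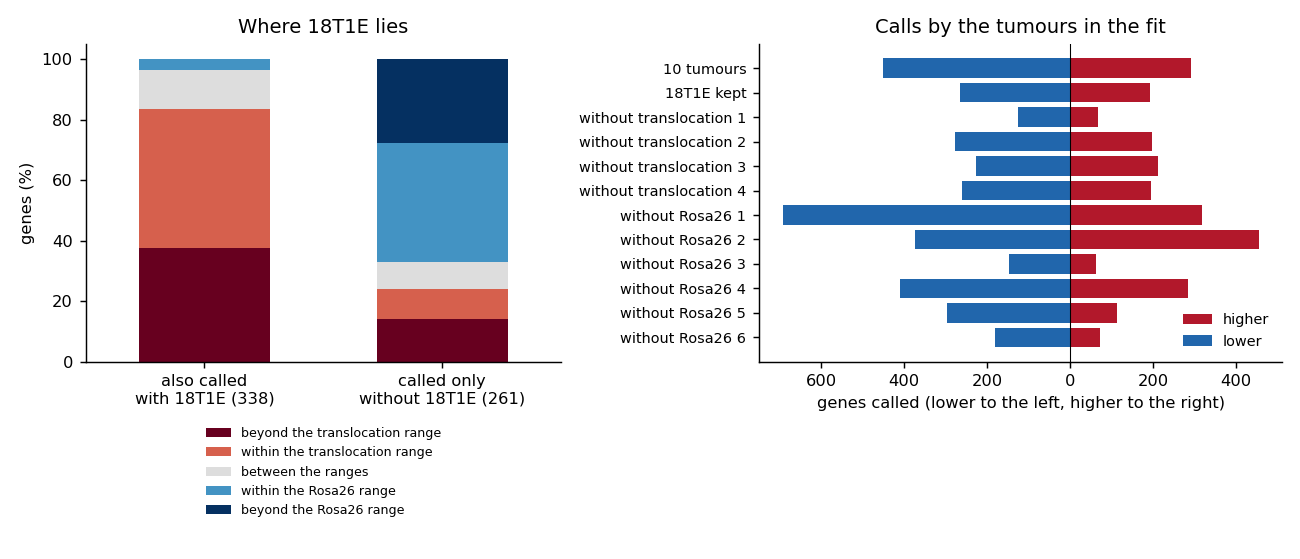
Left, where 18T1E lies at called genes with groups apart, for the 338 genes also called with it kept and the 261 called only without it, as percentages; right, the number of genes called higher (red, to the right) and lower (blue, to the left) in each fit. Among genes called only without it, 39.5% have 18T1E within and 27.6% beyond the Rosa26 range, and the fits without translocation tumour 1 or Rosa26 tumour 3 make the fewest calls, 192 and 208.

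Genes called higher only without 18T1E were mostly of moderate size. Ccdc122 was 36.2, 41.1, 13.99 and 23.6 CPM in translocation tumours 1 to 4, against Rosa26 values of 5.28, 6.196 and 8.94 CPM (lowest, median, highest), and rose (log2 fold change 2.09 ± 0.31, edgeR adjusted p = 0.0106). Fbxo4, a ubiquitin ligase adaptor gene, was 40.95, 43.6, 28.1 and 32.6 CPM against 10.2, 14.1 and 16.1 CPM and rose (log2 fold change 1.39 ± 0.21, edgeR adjusted p = 0.0107). Fap, a surface protease of activated fibroblasts, rose by 1.47 and S100a13, a calcium-binding export factor of Fgf1, by 1.55 (edgeR adjusted p = 0.0183 and 0.0113). 18T1E had 0.894 CPM, 5.47 CPM, 2.16 CPM and 7.84 CPM of these 4. The Fap call was lost without translocation tumour 1. Of the 54 genes called only with 18T1E kept, Col24a1, a fibrillar collagen gene of bone, was 21.1, 14.4, 22.6 and 12.8 CPM against 0.577, 2.14 and 9.56 CPM with 229.9 CPM in 18T1E, and without it had a log2 fold change of 2.51 (edgeR adjusted p = 0.0551).

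Among the 50 gene lists, the medians with and without 18T1E parted most for proliferation genes. Of 37 genes of mitosis and DNA replication 0 passed edgeR's test (5 at an unadjusted p under 0.05, 3 by DESeq2 and 2 by limma voom). Groups were apart at 3 of the 37, against 7.43% over all genes. The list median was -0.21 (-0.12 and -0.33 without translocation tumours 1 and 3), against 1.20 with 18T1E kept. Summed over the list, 18T1E had 5675 CPM, the other translocation tumours 459 to 874 CPM and the Rosa26 tumours 576 to 1033 CPM. Mki67, the proliferation antigen, had -1.16 (edgeR adjusted p = 0.0669), and the kinetochore motor gene Cenpe had -1.09 (edgeR adjusted p = 0.0518). Ribosome biogenesis genes had 0 of 24 called by edgeR (6 at an unadjusted p under 0.05, 4 each by DESeq2 and limma voom) and a median of -0.29, against 0.56 with 18T1E kept. Skeletal muscle genes had 0 calls among 22 by edgeR, DESeq2 or limma voom (0 at an unadjusted p under 0.05), all negative (median -2.67), and their summed level reached 99250 CPM in Rosa26 tumour 1. Without that tumour their median turned to 0.94, and without translocation tumour 2 it was -7.90.

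Calls were spread over the genome. By chromosome, from 2.60% of tested genes on chromosome 14 to 5.75% on chromosome 2 were called, with 0 of 18 mitochondrial genes by edgeR, DESeq2 or limma voom (0 at an unadjusted p under 0.05), and median log2 fold changes of the autosomes and X ran from -0.107 on X to 0.174 on chromosome 15. Protein-coding genes made up 273 of the higher and 428 of the lower calls (14282 tested, 4.91% called), lincRNAs 4 and 7 (404 tested). Among 77 tested small nucleolar RNA genes 0 passed edgeR's test (24 at an unadjusted p under 0.05, 12 by DESeq2 and 5 by limma voom), at a median of 1.32.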

How the data were processed

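Tumours were profiled by RNA-seq from stranded libraries depleted of ribosomal RNA, per the labels' protocols. The authors deposited raw counts per gene and library in 1 table. Per the submitters' processing notes, mm10, STAR 2.7.5a, cutadapt, RSEM, featureCounts and DESeq2 were used, in unstated roles. Annotation release and strand setting were not stated there. Total counts were 2.96 to 21.5 M per tumour kept. Gene models were matched by identifier to mm10.

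The 4 translocation and 6 Rosa26 tumours were compared with edgeR 4.0.16 (R 4.3.3): filterByExpr with a minimum count of 10, TMM scaling and a robust quasi-likelihood test at a Benjamini-Hochberg adjusted p of 0.05. SE is the size of the log2 fold change over the root of F. CPM values, counts scaled to a common library size, are on the TMM scale, and rho used log2 CPM with a prior count of 2. A group at 0 counts was set to a floor of 3 counts, which covers counting error only. The code was tested on simulated data. Alternatives used DESeq2 1.42.0, limma 3.58.1, other filters and scalings, leave-one-out fits, sex and, chosen after seeing the data, removal of the length trend.

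Named genes were taken from the core calls with the largest changes at a mean of at least 5 CPM, calls gained (mean of at least 20 CPM) or lost with 18T1E set aside, the most abundant calls, and called members of 50 lists and of the families with most calls. Krt18, Krt19, Sp7, Ibsp, Runx2, Mki67 and Cenpe were added as list members after their values were seen. The members and lists were chosen with earlier results of these data known. Whether tumours share an animal is not in the labels, and p-values then reflect only spread among these samples, which may be technical. The muscle library was not used here, and not every gene these rules give is reported here.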

Additional observations from a re-analysis of the deposited data

Results flagged for a closer look

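For each of the 120 genes named in the rule-based sets, the highest and lowest tumour of each genotype were compared with the rest of their group by Dixon's criterion. Of 240 groups of values, 27 held a tumour set apart. The cut-offs flag about 1 in 20 groups of normally distributed values. CPM values need not follow that shape, above all near 0, so how many chance would flag here is not known. In translocation tumour 1 these were Gzmg at 32.0 CPM, Clec4d at 37.2 CPM, Sdc1 at 788 CPM, Slc4a1 at 164 CPM, Gap43 at 2.05 CPM and Col9a3 at 1.30 CPM. In translocation tumour 2 they were Grem1 at 2.97 CPM and Ndrg1 at 415 CPM. Translocation tumour 3 stood apart for Sertm1 at 196 CPM, Cox6b2 at 78.7 CPM, Dst at 744 CPM, Mmp9 at 407 CPM and Tpsg1 at 0.0891 CPM. Translocation tumour 4 did so for Hhip at 55.5 CPM, Cldn15 at 48.8 CPM, Tnfrsf21 at 32.7 CPM, Fgf1 at 6.35 CPM, Krt39 at 0.454 CPM, F2rl1 at 0.283 CPM, Cldn22 at 0.170 CPM and Pdyn at 0.0567 CPM. All of these were the highest of their group. Among the Rosa26 tumours, tumour 1 was lowest for Frem2 at 25.2 CPM. Tumour 2 was highest for Cox4i1 at 350 CPM, tumour 4 for Gpx3 at 699 CPM, tumour 5 for Kcnk9 at 692 CPM and Itpr2 at 1901 CPM, and tumour 6 for Lrrtm3 at 0.847 CPM. The values of Tpsg1, F2rl1, Cldn22 and Pdyn rest on few counts, 2, 6, 3 and 1 in all translocation tumours.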

How the results depend on the processing

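The count of 744 calls (293 higher, 451 lower) moved with several choices. It was 460 (194 and 266) with 18T1E kept, 339 (95 and 244) with Rosa26 tumours 5 and 6 summed, 143 (22 and 121) with sex as a covariate, 1 (0 and 1) in female tumours only, 22 higher and 85 lower by glmTreat against a log2 fold change of 1, and 480 (184 and 296) with the length trend removed. DESeq2's Wald test called 2484 (1063 and 1421) and limma voom 2220 (1063 and 1157). Without a filter 488 were called, 148 of them higher. Leaving out 1 tumour at a time gave 192 to 1010 calls, 62 to 455 higher and 124 to 692 lower. Fewer tumours enter the fits of females and of 9 tumours. For the other settings the cause was not tested. Of 117 named calls 47 held in all 10 leave-one-out fits, and most ended without translocation tumour 1 (67) or Rosa26 tumour 3 (58). With sex as a covariate 91 of the 117 lost their call, and in female tumours only 110 did. With 18T1E kept the log2 fold changes of Col2a1, Mycl, Cldn22 and Col9a3 turned to 0.03, 1.47, 0.20 and 0.09. Of the 120 genes named in the rule-based sets, no other reversed under the settings run. Genes named outside those sets were not checked in this way. The groups were compared unpaired, as the labels name nothing that links a tumour of 1 genotype to a tumour of the other. The labels give no replicate numbers, and the numbers used here follow accession order. Depth was lowest in translocation tumour 2, at 2.96 M counts.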
